A study of Mus musculus with 7 samples.

Results

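RNA-seq of s/c PDA tumors was used to measure 10 genes that mark regulatory T cells, namely Foxp3, Il2ra, Ikzf2, Ikzf4, Tnfrsf18, Tnfrsf4, Ccr8, Il10, Lrrc32 and Itgae, in tumors with and without a foreign antigen. The rule for the genes used no measured value, although they were chosen with earlier results of these data known, and they were found by matching the Ensembl identifiers of the count table to mouse symbols. All 10 were among the 22629 rows of the table, and all 10 had enough counts to be tested, as did 17489 genes in all. The tumors were 3 formed with sgScramble PDA cells and 4 formed with sgScramble PDA cells that expressed icOVA, an ovalbumin kept in the cytoplasm, and they were harvested 2 weeks after inoculation into C57BL/6 mice. The mice were bought at 6 wk of age and housed for 2 wk before use.

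Both kinds of PDA cell came from 1242, a KPC line, that is, a line from a pancreatic tumor of an engineered mouse that expressed Cre under the Pdx1 promoter. Both carried Cas9 with a scrambled guide RNA, delivered by lentivirus and selected with puromycin. The icOVA cells additionally carried a doxycycline-inducible ovalbumin vector with GFP, were sorted and cloned from single cells, and their hosts ate food with doxycycline from the day of inoculation. The study describes s/c tumors of sgScramble cells both with and without induced icOVA. For the sequenced sgScramble tumors, it is not given in the sources used here if the cells were a clone, if they held the vector and if the mice were given doxycycline. The methods also give a larger inoculum for the inducible tumors than for s/c tumors in general, so clone, vector, doxycycline, number of cells injected and ovalbumin cannot be told apart as differences between the groups. Each tumor is a separate sample in the labels, and the number of each is the number in its label. Total counts ran from 30904855 in sgScramble tumor 5 to 37510591 in icOVA tumor 15.

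Regulatory T cells are CD4+ T cells that restrain other lymphocytes, and they depend on the transcription factor Foxp3. They carry the high-affinity IL-2 receptor, of which Il2ra encodes the alpha chain, and consume IL-2 that other T cells secrete. Those of tumors commonly carry the costimulatory receptors GITR (Tnfrsf18) and OX40 (Tnfrsf4) and the chemokine receptor CCR8 at high levels. Most of these genes are also used by other cells, since activated T cells express Il2ra, Tnfrsf18 and Tnfrsf4, macrophages express Il10, endothelial cells and platelets express Lrrc32, and resident CD8 T cells and type 1 dendritic cells express Itgae.

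The ovalbumin transgene and the T cell genes were examined first. OVA had 151, 85 and 92 counts in sgScramble tumors 1, 4 and 5 against 6871, 10750, 3413 and 7989 counts in icOVA tumors 15, 16, 18 and 2. The transgene was therefore high in each of the 4 libraries labelled as expressing it, with its lowest icOVA value in tumor 18. The origin of the 85 to 151 OVA counts in the sgScramble tumors cannot be told, since the vector and doxycycline status of these tumors is not given in the sources used here. Cd4, the coreceptor of helper and regulatory T cells, had 166, 187 and 167 counts in the sgScramble tumors against 529, 332, 752 and 380 counts in the icOVA tumors, in the same order. Cd3e, a chain of the T cell receptor complex of all T cells, had 320, 479 and 365 counts against 1302, 744, 1023 and 892 counts. Neither gene overlapped between groups, and both rose, Cd4 with a log2 fold change of 1.44 (SE 0.28, edgeR adjusted p = 0.0337) and Cd3e with one of 1.27 (SE 0.21, edgeR adjusted p = 0.0271). Both calls were lost when tumor 1 or 5 of the sgScramble group or icOVA tumor 15 or 2 was removed, with edgeR adjusted p values of 0.0681 to 0.155 for Cd4 and 0.0648 to 0.134 for Cd3e and log2 fold changes of 1.38 to 1.53 and 1.12 to 1.28. These values are the base for the comparisons below, in which each gene is given first against library size and then against Cd4 and Cd3e.

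Against library size, 3 of the 10 regulatory T cell genes rose in the icOVA tumors, namely Tnfrsf18, Tnfrsf4 and Il10, and none fell. Of all genes tested, 3.36% were called higher and 2.54% lower by the same rule, an adjusted p under 0.05 in the quasi-likelihood test of edgeR, adjusted over the 17489 genes by the Benjamini-Hochberg procedure. The other 7 genes did not pass, and 5 of the 10 had an unadjusted p under 0.05. The median log2 fold change of the 10 genes was 0.66, against -0.005 for all genes tested, and 9 of the 10 had a value above 0. In 5 genes, Tnfrsf18, Tnfrsf4, Il10, Il2ra and Ikzf4, every icOVA tumor was above every sgScramble tumor, as in 11.3% of all genes tested, and in the other 5 the groups overlapped. Since whole tumors were sequenced, more cells of a type and more RNA per cell cannot be told apart.

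**Figure D1:**
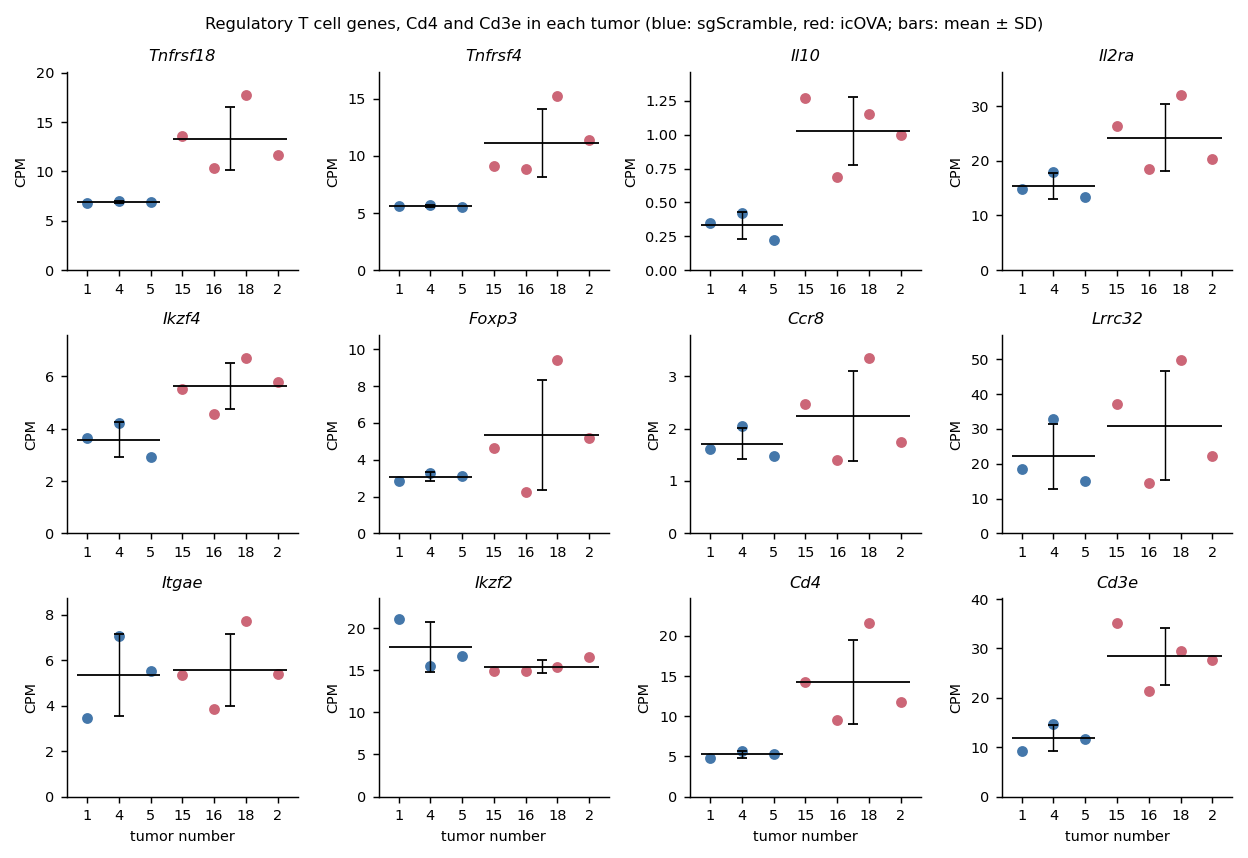
Level of each of the 10 regulatory T cell genes and of Cd4 and Cd3e (CPM, vertical axes from 0) in each tumor by tumor number, with sgScramble tumors in blue and icOVA tumors in red and the mean ± SD of each group as black bars. Tnfrsf18 lies between 6.76 and 6.99 CPM in the sgScramble tumors and between 10.3 and 17.7 CPM in the icOVA tumors, whereas the points of Foxp3, Ccr8, Lrrc32, Itgae and Ikzf2 overlap.

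Tnfrsf18 and Tnfrsf4 encode GITR and OX40, receptors of the TNF family that costimulate T cells and that regulatory T cells carry even at rest. Their genes are neighbors on chromosome 4 of GRCm38 in the GENCODE M21 annotation, with Tnfrsf4 from 156013843 to 156016612 and Tnfrsf18 from 156026164 to 156028895, both on the plus strand and separated by 9551 bases. Tnfrsf18 had 6.76, 6.99 and 6.87 CPM (the count scaled to the library size after TMM adjustment) in sgScramble tumors 1, 4 and 5 against 13.6, 10.3, 17.7 and 11.7 CPM in icOVA tumors 15, 16, 18 and 2. Its group means were 6.88 ± 0.111 CPM (SD, n = 3) against 13.3 ± 3.19 CPM (SD, n = 4). All 4 icOVA tumors were above the sgScramble tumors, which differed from each other by little, and the log2 fold change was 0.96 (SE 0.19, edgeR adjusted p = 0.0351). Tnfrsf4 had 5.58, 5.68 and 5.53 CPM in the sgScramble tumors against 9.08, 8.83, 15.3 and 11.4 CPM in the icOVA tumors. Its pattern was alike, with tumor 18 highest and no overlap, and its log2 fold change was 0.99 (SE 0.21, edgeR adjusted p = 0.0393).

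Both calls were close to the threshold. Each was lost when sgScramble tumor 1, 4 or 5 or icOVA tumor 15 or 2 was left out, with edgeR adjusted p values of 0.0521 to 0.161 for Tnfrsf18 and 0.06 to 0.172 for Tnfrsf4. In those fits the log2 fold changes were still 0.95 to 1.02 and 0.99 to 1.09, and no gene of the table was called in either direction once tumor 1 or 5 of the sgScramble group or icOVA tumor 15 was removed. An antisense gene, Gm16008, overlaps 27.2% of the exonic bases of Tnfrsf18, and while the library guide named in the methods is a stranded one, the sources used here do not state whether counting used strand. Gm16008 itself had a log2 fold change of -0.26 (edgeR adjusted p = 0.512), opposite in sign to that of Tnfrsf18.

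Because these neighbors rose together, RefSeq sequence before the start of each is shown, on the plus strand of GRCm38.p6, with matches to 3 motifs in capitals. Of the 250 bases before each RefSeq start, only those outside every exon of the GENCODE M21 annotation are shown. The annotations place the starts apart, as the RefSeq start of Tnfrsf4 lies 148 bases before the M21 start and that of Tnfrsf18 lies 158 bases after it, inside the first exon. The last exon of the upstream gene Sdf4 covers 166 of the 250 bases before Tnfrsf4. The motifs were the STAT5 motif TTCNNNGAA, the NFAT core GGAAA and the forkhead motif GTAAACA, each searched on both strands, and matches may overlap. The stretches are chr4:156013611-156013694 for Tnfrsf4, of 84 bases, and chr4:156026072-156026163 for Tnfrsf18, of 92 bases.
Tnfrsf4: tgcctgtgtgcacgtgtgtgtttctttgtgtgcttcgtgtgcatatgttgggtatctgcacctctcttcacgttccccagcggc
Tnfrsf18: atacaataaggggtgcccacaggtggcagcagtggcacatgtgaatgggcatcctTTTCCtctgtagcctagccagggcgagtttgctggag
The capitals in Tnfrsf18 are an NFAT core match that begins 37 bases before the M21 start, and this stretch has no match to the STAT5 or the forkhead motif. The stretch before Tnfrsf4 has no match to any of the 3 motifs. A stretch of 250 bases before Il2ra, which was not called, also has an NFAT core match, as do 55.6% of RefSeq windows of that length. The 231 bases before Ccr8 have no match to any of the 3 motifs. Of 32851 RefSeq windows, 26.9% hold the NFAT core, 2.65% the STAT5 motif and 1.19% the forkhead motif in the 92 bases at the same distance from the RefSeq start as the Tnfrsf18 stretch, and 22.4%, 2.08% and 0.919% hold them in the 84 bases just before that start. A match describes these letters and is not a binding site.

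The ligands of both receptors were not called. Tnfsf18, the ligand of GITR, had 0.0864, 0.365 and 0.192 CPM in the sgScramble tumors against 0.783, 0.201, 0.662 and 0.342 CPM in the icOVA tumors, and the groups overlapped (log2 fold change 1.21, SE 0.62, edgeR adjusted p = 0.247). Tnfsf4, the ligand of OX40, had 3.13 ± 0.364 CPM (SD, n = 3) against 3.51 ± 0.516 CPM (SD, n = 4), with a log2 fold change of 0.17 (SE 0.18, edgeR adjusted p = 0.584). Of the 4 genes listed with the receptors for this family, these ligands among them, 1 rose, Tnfrsf1b, which encodes a TNF receptor that regulatory T cells use. It went from 111, 134 and 116 CPM to 185, 184, 186 and 172 CPM (log2 fold change 0.60, SE 0.08, edgeR adjusted p = 0.023). Tnfrsf1b is also expressed by myeloid cells.

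Il10 encodes IL-10, a cytokine that dampens inflammation and that regulatory T cells, other T cells, B cells and macrophages can secrete. It lies on chromosome 1 from 131019845 to 131024974. It had 12, 14 and 7 counts in sgScramble tumors 1, 4 and 5 against 47, 24, 40 and 32 counts in icOVA tumors 15, 16, 18 and 2, which correspond to 0.332 ± 0.101 CPM (SD, n = 3) against 1.03 ± 0.252 CPM (SD, n = 4). Although counts were low, every icOVA tumor was above every sgScramble tumor, and Il10 had the highest log2 fold change of the 10 genes, 1.62 (SE 0.34, edgeR adjusted p = 0.038). The call was lost without sgScramble tumor 1 or 5 or icOVA tumor 15, 18 or 2, with edgeR adjusted p values of 0.0513 to 0.166 and log2 fold changes of 1.41 to 1.65.

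Both chains of the IL-10 receptor rose as well. Il10ra, the ligand-binding chain, went from 47.3, 67.1 and 47.8 CPM to 105, 79.0, 112 and 85.7 CPM (log2 fold change 0.82, SE 0.17, edgeR adjusted p = 0.0381). Il10rb, a chain shared with receptors of related cytokines, went from 54.7 ± 2.09 CPM (SD, n = 3) to 68.8 ± 2.53 CPM (SD, n = 4), a smaller log2 fold change of 0.33 (SE 0.06, edgeR adjusted p = 0.0314). Other possible sources of Il10 were followed through their markers. The 6 macrophage markers, led by C1qb, summed to 863, 1180 and 986 CPM in the sgScramble tumors against 1530, 1180, 1780 and 1230 CPM in the icOVA tumors, and 1 of the 6, Cd68, was called higher. The 6 B and plasma cell markers, led by Jchain, summed to 1.99, 1.91 and 3.45 CPM and 7.45, 4.04, 8.97 and 12.8 CPM. Of these, 5 were tested and 2 were called higher, Jchain and Mzb1, and Mzb1 was at 0 counts in all 3 sgScramble tumors. The part of these cells in the change of Il10 was not tested.

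Il2ra encodes CD25, the alpha chain of the IL-2 receptor, and lies on chromosome 2 from 11642807 to 11693193. It had 14.8, 18 and 13.3 CPM in the sgScramble tumors against 26.3, 18.4, 32.0 and 20.3 CPM in the icOVA tumors. The groups did not overlap, but the lowest icOVA tumor, 16, was close to the highest sgScramble tumor, 4, and the log2 fold change of 0.66 (SE 0.21) did not pass in edgeR (adjusted p = 0.0967). It passed in edgeR without icOVA tumor 16 (log2 fold change 0.77, adjusted p = 0.0498) and in DESeq2 with all tumors (adjusted p = 0.0245).

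Among the 8 other genes of IL-2 and its receptor signaling, 1 was called higher and none lower. This was Il2rg, the common gamma chain, which had 64.6, 85.5 and 62.9 CPM in the sgScramble tumors against 145, 125, 158 and 130 CPM in the icOVA tumors (log2 fold change 0.98, SE 0.13, edgeR adjusted p = 0.023). The beta chain, Il2rb, had 73.0 ± 13.8 CPM (SD, n = 3) against 138 ± 36.2 CPM (SD, n = 4), with a log2 fold change of 0.92 (SE 0.22, edgeR adjusted p = 0.0534). For the cytokine itself, Il2, values were 0.0864, 0.152 and 0.192 CPM against 0.594, 0.287, 0.431 and 0.622 CPM, with no overlap and a log2 fold change of 1.74 (SE 0.43, edgeR adjusted p = 0.0552). The median log2 fold change of these 8 genes was 0.27. NK cells also express Il2rb, and 5 NK cell markers, led by Klrk1, summed to 38.3, 43.0 and 28.9 CPM and 89.7, 44.4, 93.1 and 60.0 CPM, with 1 of 5, Eomes, called higher. Klrk1 and Eomes did not overlap between groups, whereas Ncr1, Klrb1c and Klra8 did, so the sum does not show each marker. The part of NK cells in the Il2rb values was not tested.

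Foxp3, the defining transcription factor of the lineage, lies on chromosome X from 7573644 to 7595245. It had 98, 108 and 98 counts in sgScramble tumors 1, 4 and 5 against 171, 78, 328 and 166 counts in icOVA tumors 15, 16, 18 and 2. In CPM these were 2.82, 3.28 and 3.13 against 4.62, 2.24, 9.43 and 5.16. The sgScramble tumors lay close together with a CV of 7.63%, whereas the icOVA tumors spread with a CV of 55.9%, since tumor 16 was below every sgScramble tumor and tumor 18 was highest. Foxp3 therefore did not differ beyond the spread between tumors, with a log2 fold change of 0.80 (SE 0.425, edgeR adjusted p = 0.264). The value depended on single tumors, with 0.38 without icOVA tumor 18 (edgeR adjusted p = 0.476) and 1.06 without icOVA tumor 16 (edgeR adjusted p = 0.066). Exons of Foxp3 share bases with those of Flicr (18.6% of its exonic bases, same strand, 58 counts over all tumors) and Ccdc22 (12.9%, opposite strand), and Ccdc22 had a log2 fold change of -0.13 (edgeR adjusted p = 0.474).

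Ikzf2 and Ikzf4 encode Helios and Eos, zinc finger factors of the Ikaros family that act with Foxp3. Ikzf4, on chromosome 10 from 128630843 to 128645991, had 3.63, 4.22 and 2.91 CPM in the sgScramble tumors against 5.51, 4.56, 6.70 and 5.78 CPM in the icOVA tumors. Its groups did not overlap, and its log2 fold change was 0.65 (SE 0.20, edgeR adjusted p = 0.0876, DESeq2 adjusted p = 0.0215). Ikzf2, on chromosome 1 from 69531214 to 69687245, had 21.1, 15.5 and 16.7 CPM and 14.9, 14.9, 15.4 and 16.6 CPM. The icOVA tumors had nearly equal values, all below sgScramble tumor 1, and Ikzf2 was the only 1 of the 10 genes with a value below 0, at a log2 fold change of -0.20 (SE 0.12, edgeR adjusted p = 0.327).

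Of the 14 other transcription factors listed for regulatory T cells, 4 rose and none fell, with a median log2 fold change of 0.13. The Ikaros family members Ikzf1 and Ikzf3, which lymphocytes in general express, went from 21.6 ± 6.45 to 48.0 ± 11.3 CPM and from 8.08 ± 2.33 to 19.0 ± 5.56 CPM (SD, n = 3 and n = 4), with log2 fold changes of 1.15 (edgeR adjusted p = 0.0394) and 1.23 (edgeR adjusted p = 0.0451). Batf and Irf4, which act together in activated and effector T cells, had log2 fold changes of 1.21 (SE 0.17, edgeR adjusted p = 0.023) and 1.39 (SE 0.24, edgeR adjusted p = 0.0273). Batf had 2.88, 2.76 and 2.65 CPM in the sgScramble tumors against 6.67, 5.22, 7.71 and 6.06 CPM in the icOVA tumors, so the groups were well apart. These 4 genes are not particular to regulatory T cells.

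Ccr8 encodes a chemokine receptor of tumor regulatory T cells and lies on chromosome 9 from 120092114 to 120094906. It had 1.61, 2.04 and 1.47 CPM in the sgScramble tumors against 2.46, 1.40, 3.34 and 1.74 CPM in the icOVA tumors, so the groups overlapped, again with tumor 16 lowest and tumor 18 highest. The log2 fold change was 0.39 (SE 0.32, edgeR adjusted p = 0.464). None of the 5 genes listed with it, the ligands of CCR8 and CCR4 and Ccr4 itself, was called. Ccl1, a ligand of CCR8, had 2.20 ± 0.976 CPM (SD, n = 3) against 2.20 ± 1.17 CPM (SD, n = 4), and Ccl8, another ligand, had 63.4, 64.8 and 70.3 CPM and 121, 69.5, 132 and 107 CPM (log2 fold change 0.70, SE 0.20, edgeR adjusted p = 0.0784). The CCR4 ligands Ccl17 and Ccl22 had log2 fold changes of -0.45 (SE 0.37, edgeR adjusted p = 0.458) and 1.01 (SE 0.29, edgeR adjusted p = 0.0783), the latter from 10.4, 11.2 and 10.2 CPM to 19.7, 11.3, 27.2 and 27.0 CPM. Mature dendritic cells secrete Ccl17 and Ccl22. Their 5 markers, led by Fscn1, summed to 96.1, 116 and 103 CPM and 129, 85.5, 209 and 142 CPM, with Lamp3 at 0 in at least 1 tumor and none of 4 tested called, and their part in the Ccl22 values was not tested.

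Lrrc32 encodes GARP, which holds latent TGF-beta on the surface of activated regulatory T cells, and lies on chromosome 7 from 98489283 to 98502181. It had 18.6, 32.8 and 14.9 CPM in the sgScramble tumors against 37.1, 14.5, 49.9 and 22.2 CPM in the icOVA tumors. The groups overlapped, with tumor 4 of the sgScramble group above 2 of the icOVA tumors, and the log2 fold change was 0.48 (SE 0.44, edgeR adjusted p = 0.511). The 6 fibroblast markers, led by Col1a1, summed to 4560, 10700 and 4300 CPM in the sgScramble tumors against 16500, 3860, 23300 and 5880 CPM in the icOVA tumors. The 6 endothelial markers, led by Pecam1, summed to 227, 291 and 202 CPM and 441, 226, 588 and 366 CPM. In all 3 measures, icOVA tumor 18 was highest, and of the sgScramble tumors, tumor 4 was highest and tumor 5 lowest. Lrrc32 and the fibroblast sum were lowest in icOVA tumor 16, and the endothelial sum was lowest in sgScramble tumor 5. None of the 6 fibroblast and none of the 6 endothelial markers was called.

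When scaled to the summed endothelial markers, Lrrc32 had 82.2, 113 and 74.1 counts per 1000 in the sgScramble tumors against 84.0, 64.0, 84.8 and 60.7 counts per 1000 in the icOVA tumors, with a log2 fold change of -0.29 (SE 0.39, edgeR adjusted p = 0.546). Scaled to the fibroblast markers it had a log2 fold change of -0.25 (SE 0.84, edgeR adjusted p = 0.93). Both scalings were chosen after seeing the data, and both turned the direction of the uncalled difference. The endothelial and fibroblast markers had median log2 fold changes of 0.84 and 0.92 against library size, above the 0.48 of Lrrc32. The turn therefore goes with the choice of markers and is no result about Lrrc32. The 5 platelet and megakaryocyte markers, led by Pf4, summed to 11.1, 16.4 and 15.8 CPM and 20.3, 12.9, 33.5 and 18.1 CPM, with Gp9 at 0 in at least 1 tumor and none of 4 tested called. Their part in the Lrrc32 values was not tested. The 6 epithelial markers, led by Krt8, summed to 3790, 3760 and 3650 CPM and 4270, 4290, 2730 and 3990 CPM, so the markers of the labelled PDA cells were abundant in every tumor, with tumor 18 lowest.

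**Figure D2:**
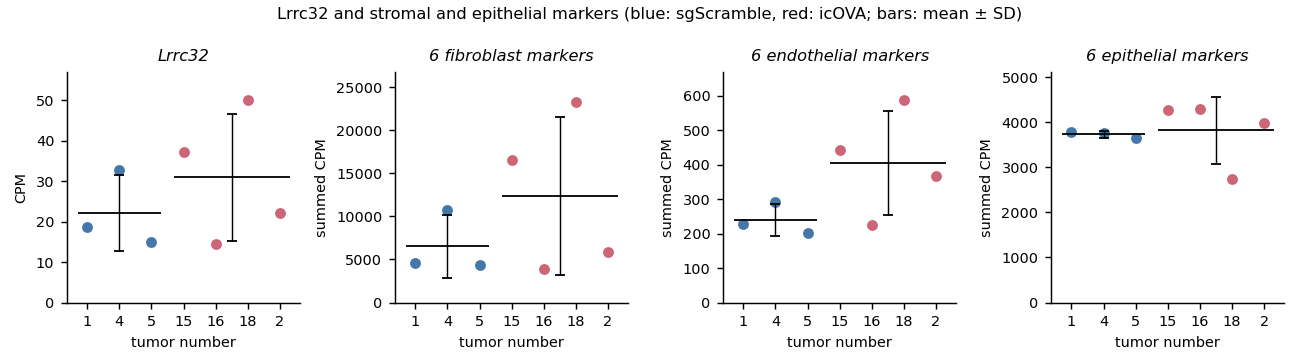
Level of Lrrc32 (CPM) and summed level of 6 fibroblast, 6 endothelial and 6 epithelial markers (summed CPM) in each tumor by tumor number, with sgScramble tumors in blue, icOVA tumors in red, mean ± SD as black bars and all vertical axes from 0. Lrrc32 and the fibroblast and endothelial sums are each highest in icOVA tumor 18, in which the epithelial sum is lowest at 2730 CPM.

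Of the 4 genes listed for TGF-beta and its release, 1 rose. Tgfb1, which encodes the ligand that GARP holds, had 76.1 ± 6.64 CPM (SD, n = 3) against 82.4 ± 6.62 CPM (SD, n = 4), with a log2 fold change of 0.12 (SE 0.09, edgeR adjusted p = 0.435). Itgb8, a chain of the integrin that releases TGF-beta from GARP, had a log2 fold change of -0.30 (SE 0.24, edgeR adjusted p = 0.458). The gene that rose was Nrros, which holds latent TGF-beta on myeloid cells and microglia in place of GARP, with 23.4, 37.0 and 25.5 CPM in the sgScramble tumors against 65.6, 44.8, 78.1 and 49.6 CPM in the icOVA tumors (log2 fold change 1.06, SE 0.24, edgeR adjusted p = 0.0443).

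Itgae encodes CD103, the integrin alpha E chain by which lymphocytes bind E-cadherin of epithelial cells, and lies on chromosome 11 from 73090583 to 73147446. It had 3.45, 7.05 and 5.53 CPM in the sgScramble tumors against 5.35, 3.87, 7.71 and 5.41 CPM in the icOVA tumors. The groups covered similar ranges, and the log2 fold change was 0.06 (SE 0.30, edgeR adjusted p = 0.911). Its partner chain Itgb7, which also pairs with alpha 4, rose from 40.5, 44.8 and 35.7 CPM to 61.8, 71.4, 82.4 and 64.7 CPM (log2 fold change 0.80, SE 0.12, edgeR adjusted p = 0.0246). Its ligand Cdh1, which encodes E-cadherin, had 1100, 916 and 1090 CPM and 753, 949, 364 and 774 CPM, with an overlap between groups and a log2 fold change of -0.54 (SE 0.28, edgeR adjusted p = 0.254).

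Cells other than regulatory T cells that carry CD103 were followed through their markers. The 6 CD8 T cell markers, led by Ccl5, summed to 249, 257 and 197 CPM in the sgScramble tumors against 576, 436, 456 and 468 CPM in the icOVA tumors, and 3 of the 6, Cd8b1, Gzmk and Ccl5, were called higher. The 6 markers of type 1 dendritic cells, led by Tlr3, summed to 180, 150 and 163 CPM and 153, 164, 116 and 147 CPM, and none was called. Of these 6, 5 had a log2 fold change above 0, and Cadm1 had one of -0.95 (SE 0.37, edgeR adjusted p = 0.153), so the sum does not show the direction of most members. The part of either cell type in the Itgae values was not tested.

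Of the 14 other surface and suppressive genes listed, 13 were tested, 3 rose and none fell, with a median log2 fold change of 0.77. Ctla4, an inhibitory receptor that regulatory T cells hold at high levels and activated T cells acquire, had 8.38, 6.56 and 6.08 CPM in the sgScramble tumors against 21.9, 16.6, 21.8 and 20.4 CPM in the icOVA tumors, with a log2 fold change of 1.53 (SE 0.16, edgeR adjusted p = 0.0203). Icos, a costimulatory receptor, had 11.9, 13.6 and 10.9 CPM and 36.2, 32.2, 40.9 and 28.9 CPM (log2 fold change 1.51, SE 0.14, edgeR adjusted p = 0.017). Tigit, an inhibitory receptor of T and NK cells, had 6.91, 7.60 and 6.84 CPM and 17.4, 11.8, 15.4 and 15.1 CPM (log2 fold change 1.07, SE 0.15, edgeR adjusted p = 0.023). All 3 were far apart between groups, and none overlapped. Gpr83 was not tested because its counts were too low.

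Over the 8 lists of other regulatory T cell genes together, 52 of 53 genes were tested, 13 rose, none fell and 41 had a value above 0, with a median log2 fold change of 0.54. Among all 17489 genes tested, 3.36% were called higher, 2.54% were called lower and 8641 had a value above 0, with a median of -0.005. These shares are also the background for each single list above. The 13 genes were Il2rg, Ikzf1, Ikzf3, Batf, Irf4, Tnfrsf1b, Il10ra, Il10rb, Nrros, Itgb7, Ctla4, Tigit and Icos. Each of them is also expressed by activated conventional T cells, B cells, NK cells or myeloid cells.

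**Figure D3:**
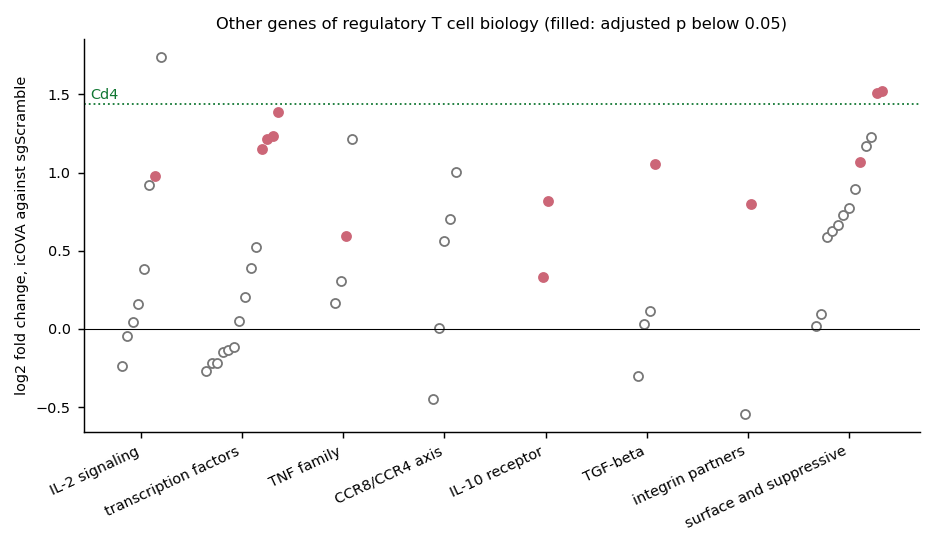
Log2 fold change of each of the 52 tested genes of the other regulatory T cell lists (vertical axis, icOVA against sgScramble tumors) by list, with filled points for the 13 genes with an adjusted p under 0.05 and open points for the others. The dotted line is the log2 fold change of Cd4, 1.44, which Il2, Ctla4 and Icos exceed.

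Levels of the 10 genes were compared with each other per kilobase of exon. In the sgScramble tumors Lrrc32 had 4.72 ± 2.02 CPM per kb, Tnfrsf18 4.51 ± 0.073 and Tnfrsf4 4.10 ± 0.0556 CPM per kb (SD, n = 3), and the values of Lrrc32 overlapped those of Tnfrsf18. Il2ra followed at 2.69 ± 0.418 CPM per kb, apart from both its neighbors. Below it came Ikzf2, Ccr8 and Itgae, from 1.53 to 1.17 CPM per kb, then Foxp3 at 0.673 ± 0.0513, Ikzf4 at 0.598 ± 0.110 and Il10 at 0.253 ± 0.0775 CPM per kb. In this lower part of the order, Ikzf2 was not separated from Ccr8, Ccr8 from Itgae or Foxp3 from Ikzf4. In the icOVA tumors Tnfrsf18 was highest with 8.74 ± 2.10 CPM per kb and Tnfrsf4 next with 8.18 ± 2.21 CPM per kb (SD, n = 4), followed by Lrrc32 with 6.59 ± 3.36 and Il2ra with 4.25 ± 1.08 CPM per kb. The only neighbors in that order that did not overlap were Il2ra and Ccr8, at 1.90 ± 0.728 CPM per kb, and Ikzf4 with 0.940 ± 0.147 and Il10 with 0.783 ± 0.192 CPM per kb were lowest.

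The icOVA tumors differed among themselves for most of the 10 genes. Tumor 16 had the lowest CPM of the 4 for all 10 genes, although for Ikzf2 the 4 tumors were nearly equal at 14.9, 14.9, 15.4 and 16.6 CPM, and tumor 18 had the highest for 8, the exceptions being Ikzf2, highest in tumor 2, and Il10, highest in tumor 15. In the sgScramble group tumor 4 was highest for 9 genes and tumor 5 lowest for 6. Summed over the 10 genes, levels were 78.8, 95.9 and 70.6 CPM in sgScramble tumors 1, 4 and 5 against 120, 79.7, 159 and 101 CPM in icOVA tumors 15, 16, 18 and 2. Il2ra, Ikzf2 and Lrrc32 gave the most to the sum, except in tumor 18, where Tnfrsf18 (17.7 CPM) exceeded Ikzf2 (15.4 CPM). The sum placed tumor 16 within the range of the sgScramble tumors, but the genes of tumor 16 did not all lie there. In tumor 16, Il2ra, Ikzf4, Tnfrsf18, Tnfrsf4 and Il10 were above every sgScramble tumor, Foxp3, Ikzf2, Ccr8 and Lrrc32 were below every one, and Itgae was between them. Tumor 16 had the most OVA counts, 10750, and the fewest counts of Cd4 and Cd3e among the icOVA tumors. Tumor 18 had the fewest OVA counts, 3413, the most Cd4 counts and the highest fibroblast sum. The genes were not alike in spread, since within the icOVA group the CV was 5.28% for Ikzf2, 24.0% for Tnfrsf18 and 50.9% for Lrrc32.

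The question of whether these genes kept pace with the T cells was addressed by expressing each count per 100 counts of Cd4. Foxp3 had 59.0, 57.8 and 58.7 counts per 100 Cd4 counts in sgScramble tumors 1, 4 and 5 against 32.3, 23.5, 43.6 and 43.7 in icOVA tumors 15, 16, 18 and 2. The sgScramble tumors were nearly equal, and every icOVA tumor was lower, at 58.5 ± 0.662 (SD, n = 3) against 35.8 ± 9.78 (SD, n = 4). The 95% exact (Clopper-Pearson) intervals, which cover counting error only, ran from 45.5 to 76.2 in sgScramble tumor 1, from 27.0 to 38.5 in icOVA tumor 15, from 18.1 to 30.1 in icOVA tumor 16, from 38.2 to 49.7 in icOVA tumor 18 and from 36.2 to 52.6 in icOVA tumor 2. The intervals of tumors 18 and 2 thus overlapped those of the sgScramble tumors, and those of tumors 15 and 16 did not. The log2 fold change with libraries scaled to Cd4 was -0.71 (SE 0.35) and did not pass in edgeR (adjusted p = 0.0603). An exact two-sided permutation test of the log2 ratio, added after seeing the data, gave p = 0.0571, the smallest that 3 against 4 tumors allow. Without icOVA tumor 18 the edgeR fit called Foxp3 lower relative to Cd4 (log2 fold change -0.82, adjusted p = 0.0147), as it did 86.6% of all genes. On this scale 84.8% of all genes were lower with no overlap between groups and the median gene had a log2 fold change of -1.33, so the lower ratio is no result about Foxp3, whose value lay above that median.

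Foxp3 was also expressed per 100 counts of Cd3e. It had 30.6, 22.5 and 26.8 counts per 100 Cd3e counts in the sgScramble tumors against 13.1, 10.5, 32.1 and 18.6 in the icOVA tumors. Tumors 15, 16 and 2 lay below the sgScramble tumors and tumor 18 above them, so the groups overlapped (log2 fold change -0.52, SE 0.37, edgeR adjusted p = 0.182, and exact two-sided permutation p = 0.229). Without icOVA tumor 18 the log2 fold change was -0.92 (edgeR adjusted p = 0.0201), and 85.9% of all genes were called lower in that fit. With all tumors the median gene had a log2 fold change of -1.27 relative to Cd3e, below that of Foxp3. The ratio to Cd3e is therefore no result about Foxp3 either. Tumor 18 of the icOVA group had 73.5 Cd4 counts per 100 Cd3e counts, against 39.0 to 51.9 in the other 6 tumors. The ratio of Cd4 to Cd3e itself was not called in edgeR (log2 fold change of Cd4 relative to Cd3e 0.15, SE 0.32, adjusted p = 0.668).

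**Figure D4:**
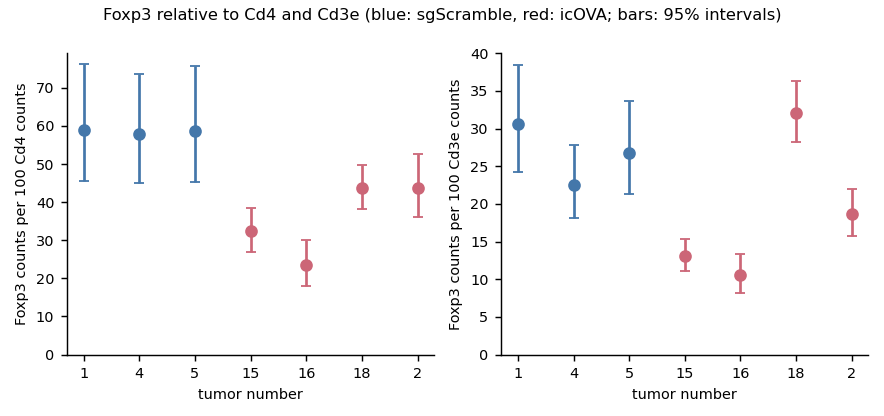
Foxp3 counts per 100 counts of Cd4 (left) and of Cd3e (right) in each tumor by tumor number, with sgScramble tumors in blue, icOVA tumors in red, and bars for the 95% exact interval of the counts. Against Cd4 the sgScramble tumors lie at 57.8 to 59.0 and the icOVA tumors at 23.5 to 43.7, and against Cd3e icOVA tumor 18 lies highest at 32.1.

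Among the other 9 genes, 8 were lower per 100 Cd4 counts in every icOVA tumor than in any sgScramble tumor, as were 84.8% of all genes tested, and Il10 overlapped. Ikzf2 had the lowest log2 fold change, with 442, 272 and 313 counts per 100 Cd4 counts in the sgScramble tumors against 104, 157, 71.1 and 141 in the icOVA tumors (log2 fold change -1.54, SE 0.33, edgeR adjusted p = 0.000607). Itgae had 72.3, 124 and 104 counts per 100 Cd4 counts and 37.4, 40.7, 35.6 and 45.8 (log2 fold change -1.33, SE 0.33, edgeR adjusted p = 0.00128). Ccr8 had 33.7, 35.8 and 27.5 against 17.2, 14.8, 15.4 and 14.7, values that hardly differed among the icOVA tumors (log2 fold change -1.06, SE 0.37, edgeR adjusted p = 0.0102). Lrrc32 (log2 fold change -1.002, SE 0.32, edgeR adjusted p = 0.00613) and Il2ra (log2 fold change -0.74, SE 0.29, edgeR adjusted p = 0.0221) were called as well, Lrrc32 not without sgScramble tumor 4 and Il2ra not without sgScramble tumor 1 or 4 or icOVA tumor 15 or 2. Il2ra fell from 310, 316 and 249 counts per 100 Cd4 counts to 184, 193, 148 and 172.

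The genes that had risen against library size were not called relative to Cd4. Tnfrsf18 had 142, 123 and 129 counts per 100 Cd4 counts in the sgScramble tumors against 95.5, 108, 81.6 and 98.9 in the icOVA tumors (log2 fold change -0.45, SE 0.31, edgeR adjusted p = 0.17). Tnfrsf4 had 117, 100 and 104 against 63.5, 92.8, 70.9 and 96.6 (log2 fold change -0.40, SE 0.32, edgeR adjusted p = 0.235). Il10 had 7.23, 7.49 and 4.19 against 8.88, 7.23, 5.32 and 8.42, with a log2 fold change of 0.23 (SE 0.48, edgeR adjusted p = 0.64), and was the only 1 of the 10 with a value above 0 on this scale. Ikzf4 had a log2 fold change of -0.72 (SE 0.34, edgeR adjusted p = 0.0513).

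Relative to Cd4, 5 of the 10 genes were thus called lower and none higher, and relative to Cd3e likewise 5 and none. These shares are no result about the 10 genes. In the same fits 85.3% of all genes tested were called lower relative to Cd4 and 0.212% higher, and 84.2% were called lower relative to Cd3e and 0.315% higher, and Cd4 and Cd3e had themselves risen against library size. The median log2 fold change of all genes was -1.33 relative to Cd4 and -1.27 relative to Cd3e, and that of the 10 genes was -0.73 and -0.63. Genes whose ratio to Cd4 did not overlap and was lower made up 84.8% of all genes and 9 of the 10, and for Cd3e they made up 80.9% and 5 of the 10. The 5 called relative to Cd3e were Il2ra, Ikzf2, Ccr8, Lrrc32 and Itgae, as for Cd4, with edgeR adjusted p values from 2.96e-05 for Ikzf2 to 0.035 for Il2ra. The call relative to Cd3e was lost for Il2ra when sgScramble tumor 1 or 5 or icOVA tumor 15 or 2 was removed, for Ccr8 when sgScramble tumor 1 or icOVA tumor 15 or 2 was removed, and for Lrrc32 when icOVA tumor 2 was removed, with edgeR adjusted p values of 0.0528 to 0.165. With libraries scaled to Cd8a or to Ptprc, the pan-leukocyte gene, 2 of the 10 were called lower, Ikzf2 and Itgae, against 75.3% and 80.4% of all genes.

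**Figure D5:**
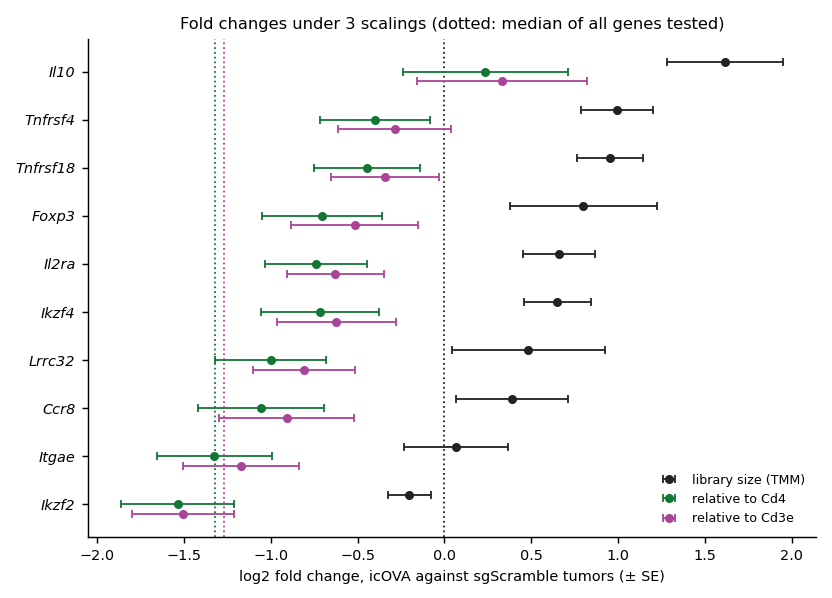
Log2 fold change ± SE of each of the 10 genes between icOVA and sgScramble tumors (horizontal axis) with libraries scaled by TMM (black), to Cd4 (green) or to Cd3e (purple), and the median of all genes tested under each scaling as a dotted line. Il10 has the highest value under each scaling, and Ikzf2 the lowest, at -0.20, -1.54 and -1.51.

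The other regulatory T cell lists were examined in the same way. Of their 52 tested genes, 29 were called lower relative to Cd4 and none higher, against 85.3% of all genes called lower, and their median log2 fold change was -0.89, against -1.33 over all genes. Relative to Cd3e, 29 of the 52 were called lower, against 84.2% of all genes, with a median of -0.77 against -1.27. Of the 13 genes that had risen against library size, 1 was called lower relative to Cd4 and none higher, with values from -0.998 for Il10rb to 0.16 for Ctla4 and a median of -0.28. Only Ctla4, Icos and Irf4 of these 13 had a value above 0, at 0.16 (SE 0.32, edgeR adjusted p = 0.648), 0.15 (SE 0.31, edgeR adjusted p = 0.644) and 0.04 (SE 0.33, edgeR adjusted p = 0.915). The 13 were chosen by their rise in the same tumors, so their place above the other genes follows from that choice.

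Genes with the pattern most like that of Foxp3 over the 7 tumors were sought among 14127 genes with a mean count of at least 50, by Pearson's r of log2 CPM. The 5 with the highest r were Limk1 (0.98), Tbc1d4 (0.98), Vamp2 (0.98), Med27 (0.98) and Tmem88 (0.98). Tbc1d4, for example, had 13.4, 16.3 and 14.4 CPM in sgScramble tumors 1, 4 and 5 against 20.7, 13.4, 29.7 and 22.4 CPM in icOVA tumors 15, 16, 18 and 2, the order of Foxp3 within the icOVA group. Among the regulatory T cell genes with enough counts, r with Foxp3 was highest for Ccr8 (0.88, rank 488), followed by Il2ra (0.81) and Lrrc32 (0.81), and lowest for Ikzf2 (-0.26). Cd4 had an r of 0.79 and Cd3e of 0.63. These values describe 7 tumors that include a group difference, with icOVA tumor 18 high in most, and they carry no test.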

How the data were processed

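RNA from 7 s/c tumors was sequenced, per the study's methods with libraries made after a TruSeq guide for stranded total RNA, 12 cycles of amplification and single reads of 76 bases. The labels instead give the molecule as polyA RNA, and the sources used here do not settle which applies. The authors deposited 1 table of whole-number read counts for genes, with no scaling, whose build the submitters' processing notes give as mm10. The aligner, the counting tool, its strand setting and the annotation are not given in the sources used here. No per-sample column was left out. Identifiers were matched without version to GENCODE M21, which gave symbols for 22414 of 22629 rows.

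Low counts were removed with filterByExpr (minimum count 10, minimum total 15), and the rest were tested with edgeR 4.0.16 in R 4.3.3 by its quasi-likelihood test on all 7 tumors with TMM scaling and no covariate. The Benjamini-Hochberg procedure adjusted p values over the 17489 genes tested, with a threshold of 0.05. The same test was run with libraries scaled to the Cd4 or the Cd3e count of each tumor, over 17488 genes. Log2 CPM had a prior count of 2. Scripts were tested on simulated data. Exact two-sided permutation tests (scipy 1.17.1) of 20 log2 ratios were added after seeing the data, and their smallest p is 0.0571. P values measure only the spread between these tumors.

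Alternatives were DESeq2 1.42.0, limma-voom (limma 3.58.1), other scalings, filters and reference genes, and leaving out each tumor in turn. Named genes are the 10 listed genes, Cd4, Cd3e and OVA, their ligands, receptors and partners, the genes of the other regulatory T cell lists past the threshold, the most abundant gene and any gene at 0 of each marker list, and the 5 genes most like Foxp3. Also named are genes of the helper T cell cytokine list, genes that overlap the listed genes or the stretches before them, and other genes used for scaling. Cadm1, Ncr1, Klrb1c and Klra8 were named after their values were seen. Marker genes named as called higher were otherwise chosen after their values were seen. The 10 genes and all lists were chosen with earlier results of these data known. Promoters are those of RefSeq on GRCm38.p6, and 5 of the 10 genes had an entry. Bases in an exon of GENCODE M21 are not shown. Tumors of Krt19-edited cells were not analysed here, and a marker list of lymphocytes is not reported here.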

Additional observations from a re-analysis of the deposited data

How the results depend on the processing

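With all tumors kept, the 10 genes, Cd4 and Cd3e had 141 distinct tested values for single genes under the other settings, of which 127 kept their direction and their side of the threshold, 8 lost their call, 3 gained one and 3 turned direction. Leaving out each tumor gave 238 such values, of which 193 were unchanged in this sense, 36 lost their call, 4 gained one and 5 turned direction. DESeq2 called 1558 genes higher and 1278 lower, against 588 and 444 in edgeR, and 5 of the 10 regulatory T cell genes higher. Leaving out a tumor gave 0 to 1014 genes higher, 0 to 716 genes lower and 0 to 4 of the 10 genes higher, with 0 of the 10 without sgScramble tumor 1 or 5 or icOVA tumor 15 or 2, 1 without sgScramble tumor 4 and 4 without icOVA tumor 16. Leaving out icOVA tumor 2 left 6 genes higher and 2 lower. Relative to Cd4, 5 of the 10 genes were lower, 2 with libraries scaled to Cd8a, 2 with Ptprc, and 3 to 6 with a tumor left out, against 85.3%, 75.3%, 80.4%, and 76.1% to 88.5% of all genes. Relative to Cd3e, the corresponding counts were 5, 2, 2, and 2 to 6, against 84.2%, 75.3%, 80.4%, and 74.6% to 86.0% of all genes, so none of these counts is a result about the 10. Tnfrsf4 missed the threshold in limma-voom (adjusted p = 0.0559), as did Cd4 (adjusted p = 0.0523), and Il10 has no value under a minimum of 10 counts in every tumor. Itgae ranged from -0.17 to 0.32 on the log2 scale with a tumor left out. Cd3e relative to Cd4, -0.08 on the log2 scale, was 0.04 with libraries scaled to Cd3d, Cd3e, Cd3g and Trac, 0.24 with Cd8a, 0.17 with Ptprc, and -0.18 to 0.079 with a tumor left out, and Cd4 relative to Cd3e ranged from -0.10 to 0.25. Lrrc32 was -0.29 and -0.25 against the endothelial and fibroblast markers. In the permutation test of ratios, added after seeing the data, 10 called ratios lose their call, 9 of them at p = 0.0571, the smallest that 3 against 4 tumors allow, and Lrrc32 relative to Cd3e at p = 0.114 with overlapping groups. For the other changes the cause was not tested. Il10, Ccr8 and Foxp3 had the fewest counts of the 10 genes, which limits the precision of their ratios. A figure caption of the study calls the compared cells paired, but the labels do not say which single tumors would form pairs. Tumor numbers are not shared between groups either, and no paired analysis was run.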

Other observations

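Cytokine genes of helper T cells, which the comparisons above do not use, were 7 by list. Of these, 4 were tested and 2 rose, against 3.36% called higher among all genes tested. Ifng, the lead cytokine of type 1 responses, had 11.4, 11.7 and 8.70 CPM in sgScramble tumors 1, 4 and 5 and 28.0, 22.1, 15.2 and 24.5 CPM in icOVA tumors 15, 16, 18 and 2 (log2 fold change 1.08, SE 0.22, edgeR adjusted p = 0.0352). CD8 T cells and NK cells also make Ifng. The 6 CD8 T cell markers, led by Ccl5, summed to 249, 257 and 197 CPM and 576, 436, 456 and 468 CPM with 3 of 6 called higher. The 5 NK cell markers, led by Klrk1, summed to 38.3, 43.0 and 28.9 CPM and 89.7, 44.4, 93.1 and 60.0 CPM with 1 of 5 called higher. Of the NK cell markers, Ncr1, Klrb1c and Klra8 overlapped between groups. The part of either cell type in the Ifng values was not tested. Cd40lg, through which helper T cells activate B cells and dendritic cells, had 0.191 ± 0.0360 CPM (SD, n = 3) against 0.526 ± 0.0738 CPM (SD, n = 4), with a log2 fold change of 1.44 (SE 0.30, edgeR adjusted p = 0.037). Il21, a cytokine of follicular helper T cells, had 0.127 ± 0.118 CPM (SD, n = 3) against 0.431 ± 0.101 CPM (SD, n = 4), with no overlap (log2 fold change 1.70, SE 0.57, edgeR adjusted p = 0.108). Il13, a cytokine of type 2 responses, had 0.489, 0.273 and 0.320 CPM and 0.0810, 0.115, 0.374 and 0.155 CPM (log2 fold change -0.99, SE 0.53, edgeR adjusted p = 0.271). Il5 had too few counts to be tested, and Il4 and Il17a were not found by symbol among the rows of the count table.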
